A study of Mus musculus with 4 samples.

Results

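The genes described here encode the proteins of the cytosolic ribosome, with the paralogues that are used mainly in the testis, and they were chosen by name from a list of 56 genes. A listed gene was measured where a probe set on the array was annotated to it and to no other gene, and the brightest such probe set by mean signal stood for the gene. This gave 38 of the 56 genes, of which 35 had a mean signal at or above 45.8, the median over all mouse probe sets and the lowest mean kept for testing. In all, 12241 named genes were tested. The 3 measured genes under that limit were Rpl12, Rpl14 and Rps16, whose mean signals were 45.2, 6.47 and 3.74.

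The arrays carried RNA from whole testes of 8-week-old C57BL/6J males, 2 from Taf7l knockout mice and 2 from wild type mice, which the series design calls littermates. Taf7l, which lies on the X chromosome, encodes a paralogue of the TFIID subunit Taf7 that is used mainly in germ cells, and the labels do not give the form of the mutant allele. Nothing else distinguishes the groups in the labels. The title of the second knockout array gives replicate 2 while its description gives 1, so it is not settled that both came from separate animals. The p-values then measure only the spread among these 4 arrays, which may be technical. Signals are linear and have no unit, and they are compared between genotypes within a probe set and not between probe sets.

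A ribosome is built from a small and a large subunit, each a shell of proteins around ribosomal RNA, and nearly every protein is present in a single copy. Most of these proteins are encoded by 1 widely expressed gene in the mouse. In the male germ line the sex chromosomes are silenced during meiosis, and X-linked ribosomal protein genes have autosomal paralogues that are expressed in the testis, Rpl10l beside Rpl10 and Rpl39l beside Rpl39. Rpl39 and Rpl39l encode a very small protein that lines the tunnel through which the new chain leaves the ribosome. Transcripts of ribosomal protein genes usually begin within a run of pyrimidines, which ties their translation to growth signals.

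The start-site windows of Rpl39l and Rpl39, the paralogue pair measured among the listed genes, are shown. Those of Rpl4 and Rps18, which differed in opposite directions between the genotypes, are shown with them. Capitals mark the longest unbroken run of C or T that reaches within 5 bases of the annotated start. Each window holds 40 bases before the start and 20 from it on, read 5′ to 3′ on the gene's strand, from RefSeq on GRCm38.p6. They lie at chr16:10170188-10170247 (Rpl39l, + strand), chrX:37085203-37085262 (Rpl39, - strand), chr9:64173347-64173406 (Rpl4, + strand) and chr17:33955646-33955705 (Rps18, - strand).
Rpl39l: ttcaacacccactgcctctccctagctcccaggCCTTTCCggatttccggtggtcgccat
Rpl39: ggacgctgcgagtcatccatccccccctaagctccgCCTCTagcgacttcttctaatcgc
Rpl4: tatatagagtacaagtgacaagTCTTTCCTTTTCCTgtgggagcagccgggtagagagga
Rps18: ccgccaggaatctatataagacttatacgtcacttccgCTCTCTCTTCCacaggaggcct
The run spans 7 bases in Rpl39l, 5 in Rpl39, 14 in Rpl4 and 11 in Rps18. In Rpl39 and Rps18 it takes in the annotated first base, and in Rpl39l and Rpl4 it ends before that base. Over the 54 windows of 47 listed genes, 44.4% held a run of at least 6 pyrimidines that reached within 5 bases of the start, against 21.0% of all 32851 windows. In the 300-base window (250 before to 50 after the start, both strands) the letters TATAAA stood in 5 of the 54 windows, Rpl39 among them, against 13.6% of all windows. The letters TGACGTCA stood in 3 of the 54, none of them a window of Rpl39l, Rpl39, Rpl10l or Rpl10, against 1.79% of all windows.

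The targeted gene, Taf7l, read 80.6 and 72.5 on the knockout arrays, against 829 and 818 on the wild type arrays (log2 difference -3.43, SE 0.097, limma adjusted p = 0.0033). The trimmed mean of all mouse probe sets, with 2% cut at each end, was 465 and 481 on the knockout arrays and 509 on both wild type arrays, and how the deposited signals were scaled is not given. Scaling the arrays to a common trimmed mean moved the median of all genes by 0.10 on the log2 scale. It adds as much to the log2 difference of each gene, so differences of that size depend on the scaling. A log2 ratio of 2 genes within an array does not change with it. Summed markers of 4 testis cell types moved with genotype as deposited. Leydig cell markers summed to 20460 and 20906 on the knockout arrays, against 16641 and 16431 on the wild type arrays, and 5 of 5 above the limit were higher. Sertoli cell markers summed to 51224 and 45385, against 42526 and 38943, with 6 of 7 higher, and leukocyte markers to 1887 and 1843, against 1471 and 1545, with 5 of 5 higher. Clu alone gave 43413 and 37656 of the Sertoli sums, against 35026 and 32203. Of the Sertoli markers above the limit, only Clu and Rhox5 had groups that did not overlap. Cyp17a1 gave 15226 and 15105 of the Leydig sums, against 12131 and 11852. Spermatid markers summed to 424998 and 412736, against 459005 and 444073, with 8 of 9 lower. Their median log2 difference was -0.14, where a common trimmed mean adds 0.10, so this fall depends on the scaling. The sums overlapped for spermatocytes, at 42002 and 48369 on the knockout arrays and 41188 and 43643 on the wild type arrays, and for spermatogonia, at 1686 and 1596, against 1553 and 1630. Wild type replicate 2 stood apart in adipocyte markers, which summed to 971 and 1681 on the knockout arrays and 875 and 4000 on the wild type arrays, and in epididymis markers, at 283 and 300, against 355 and 764. Actin control probe sets at the 3′ and 5′ ends, whose ratio rises as RNA breaks down, gave 2.42 and 2.18 on the knockout arrays, against 2.09 and 1.999 on the wild type arrays. The same ratio of the Gapdh control ran the other way, at 0.927 and 0.938 on the knockout arrays, against 1.04 and 0.990 on the wild type arrays. In whole testis a change in the number of cells of a type and a change in RNA per cell cannot be told apart, and the part of these shifts in the values that follow was not tested.

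Ribosomal protein transcripts differed little in size between the genotypes as deposited, some higher and some lower. At the brightest probe set, 0 of the 35 tested genes passed limma's test (lmFit and eBayes with a variance trend, two-sided, Benjamini-Hochberg adjustment over 22519 probe sets, adjusted p under 0.05), where 1.39% of all probe sets tested were called, a share at which 0 of 35 is no result about these genes. At the brightest probe set, 0.539% of all genes were called higher and 1.2% lower. At an unadjusted p under 0.05 there were 5 genes of the 35 higher and 2 lower, where 7.49% of all genes were higher and 20.4% lower. The smallest adjusted p among the 35 was 0.051. The median log2 difference over the 35 genes was 0.0012 (0.11 with a common trimmed mean), with quartiles of -0.07 and 0.13, against -0.05 over all genes. The differences ran from -0.33 to 0.35. The knockout mean lay within 10% of the wild type mean in 23 of the 35 genes, and in 50.3% of all genes. The 35 genes were brighter than most, with a median signal of 13069, against 464 over all genes. The wild type arrays also differed less from each other over the 35 (SD of the log2 difference 0.081) than over all genes (0.195). The part of brightness in these small differences was not tested. The median half-width of the 95% intervals of the 35 differences was 0.14.

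The 2 knockout arrays lay wholly above the wild type arrays in 14 of the 35 genes (40%) and wholly below in 11 (31.4%), where 19.6% and 38.7% of all genes did so. Counted by means, 18 genes were higher and 17 lower, where 39.3% of all genes were higher. The split of the 35 depended on the scaling: 16 were higher with each array centred on its median, 26 after quantile normalization and 28 with a common trimmed mean. Relative to the median of all genes, the median of the 35 lay 0.05 higher as deposited and 0.06 higher after quantile normalization. Median centring and a common trimmed mean shift all genes of an array alike, so they could not change this value. It was 0.02 with no signal limit (38 listed genes) and 0.099 above the 75th percentile of signal (34 listed genes). Without probe sets whose names end in _a_at, _s_at or _x_at it was 0.14 (11 listed genes). Summed over the 35 genes, the signal was 576430 and 590814 on the knockout arrays and 579726 and 589234 on the wild type arrays, so the groups overlapped. As a share of the summed signal of all tested genes it was 2.42% and 2.41% on the knockout arrays, against 2.24% and 2.29% on the wild type arrays.

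**Figure D1:**
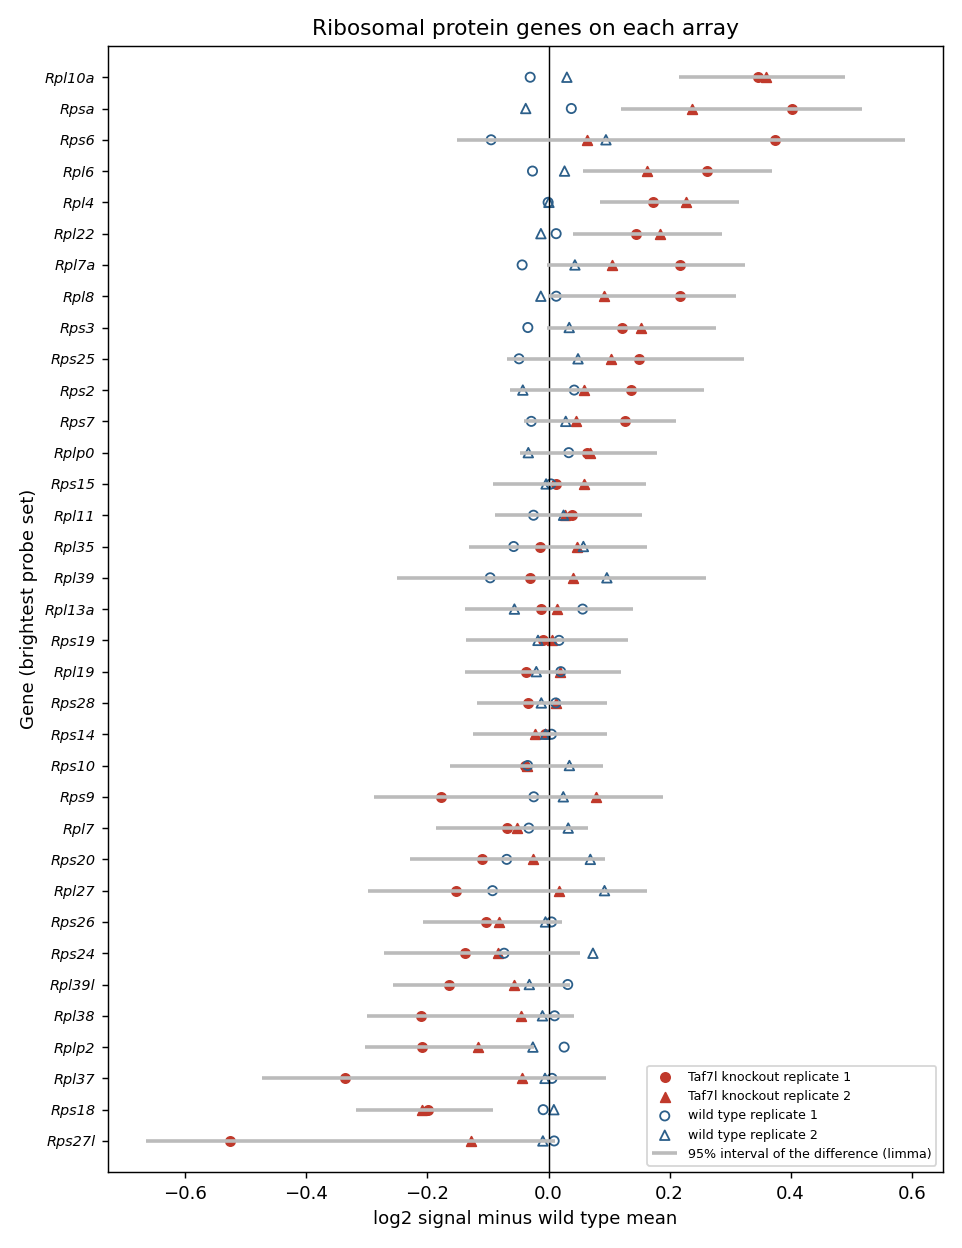
Log2 signal of the 35 tested ribosomal protein genes on each array, minus the mean of the 2 wild type arrays, with genes ordered by their difference. Filled red marks are Taf7l knockout arrays, open blue marks wild type arrays, and grey bars the 95% interval of the difference. Intervals of 7 genes leave out 0, and Rpl10a stands at the top with 0.35 and Rps27l at the bottom with -0.33.

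Of the testis paralogues, Rpl39l could be set beside its X-linked parent and Rpl10l could not. Rpl39l had a signal of 21356 and 23007 on the knockout arrays, against 24473 and 23421 on the wild type arrays. Both knockout values lay below both wild type values, and the difference of -0.11 (SE 0.057, 95% interval -0.26 to 0.04) did not pass limma's test (adjusted p = 0.31). The difference was -0.0063 with a common trimmed mean and -0.06 without knockout replicate 1.

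Rpl39 had a signal of 416 and 437 on the knockout arrays, against 397 and 454 on the wild type arrays. The knockout values lay between the wild type ones, with a difference of 0.005 (SE 0.10, 95% interval -0.25 to 0.26, limma adjusted p = 0.98). Another probe set annotated to Rpl39 together with a second gene was left out.

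The contrast of the pair, the log2 ratio of Rpl39l to Rpl39 within an array, was 5.68 and 5.72 on the knockout arrays and 5.95 and 5.69 on the wild type arrays. Only its difference between genotypes is read, since 2 probe sets bind with different strength. That difference was -0.12 and did not exceed the spread between arrays (exact permutation test over the arrays, two-sided, p = 0.67, where 0.333 is the smallest p that 2 against 2 can give). It was 0.012 without wild type replicate 1 and -0.24 without wild type replicate 2. Rpl10l and Rpl10 were not analysed here, because no probe set was annotated to either of them alone.

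Rpl22 and Rpl22l1 form another paralogue pair, of which Rpl22l1 is not on the list of 56 and was taken up after its values were seen. In mouse cells Rpl22 protein is known to hold down the expression of Rpl22l1. Rpl22 had a signal of 12677 and 13029 on the knockout arrays, against 11570 and 11370 on the wild type arrays (difference 0.16, SE 0.048, limma adjusted p = 0.12). Both knockout values were above both wild type values, and all 3 kept Rpl22 probe sets were higher, by 0.06 to 0.16.

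Rpl22l1 had a signal of 11657 and 13520 on the knockout arrays, against 15361 and 15699 on the wild type arrays (difference -0.31, SE 0.081, limma adjusted p = 0.10). Both knockout values were below both wild type values. The log2 ratio of Rpl22l1 to Rpl22 was -0.12 and 0.05 on the knockout arrays and 0.41 and 0.47 on the wild type arrays. The ratio was thus lower on both knockout arrays, by 0.47, and this difference stayed between -0.56 and -0.38 with any 1 array left out. The exact permutation p was 0.333, the smallest the design allows, and 1 after Benjamini-Hochberg adjustment over the 3 paralogue pairs that were contrasted. The third pair, Rpl7l1 and Rpl7, differed by 0.02 in the same contrast (exact permutation p = 1).

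**Figure D2:**
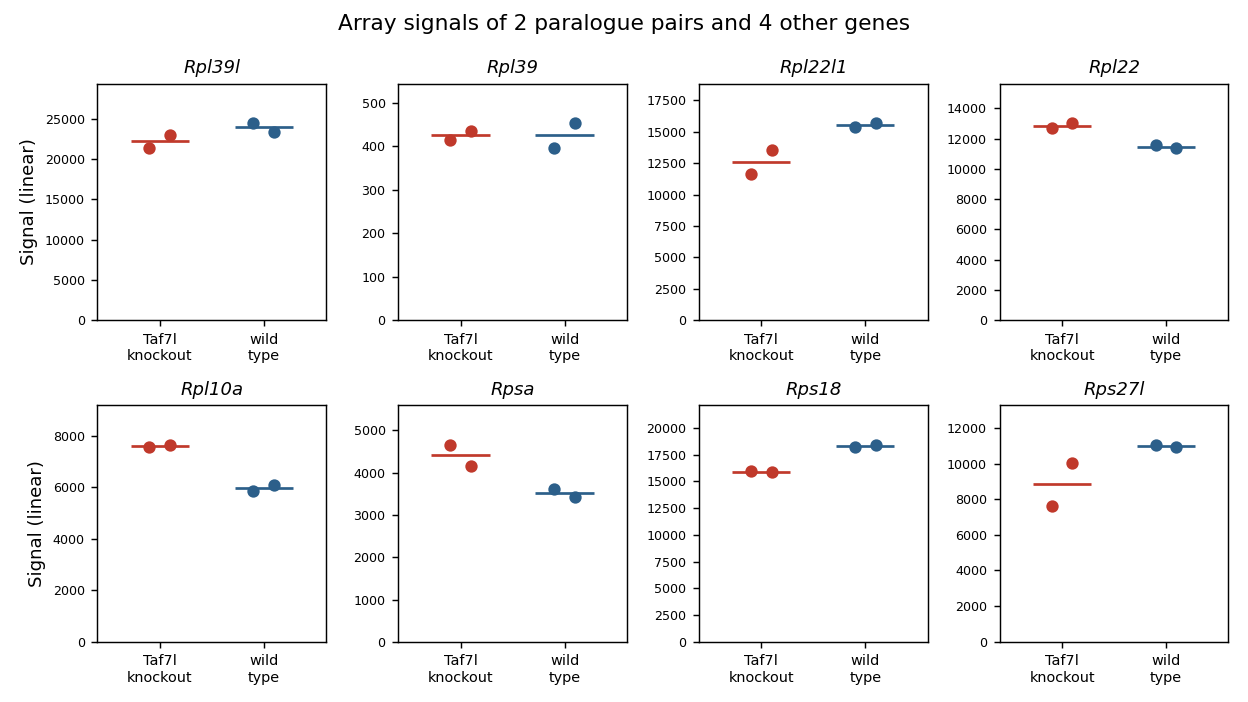
Linear signal of 8 genes, each panel with its own axis from 0. Points are arrays and bars are group means, Taf7l knockout in red and wild type in blue. Knockout and wild type points overlap for Rpl39 alone among the 8.

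Among tested genes of the large subunit, the largest difference was that of Rpl10a, which encodes a protein of the L1 stalk, the arm that guides used transfer RNA out of the ribosome. Its signal was 7567 and 7643 on the knockout arrays, against 5832 and 6082 on the wild type arrays. The groups were well apart, at 7605 ± 53.8 and 5957 ± 177 (SD, n = 2 each), a ratio of 1.28 (log2 0.35, SE 0.054, limma adjusted p = 0.051). It passed with quantile normalization (adjusted p = 0.046), median centring (0.047), a common trimmed mean (0.032), the mean of probe sets (0.028), 1 probe set per gene (0.034) and the 75th percentile filter (0.011). It did not pass with an offset of 16 (0.051), a robust prior (0.053), the replicate block (0.054), no variance trend (0.0997), no filter (0.16) or any 1 array left out (0.092 to 0.35). Rpl12, which was just under the signal limit and not tested, had a larger difference of 0.54, with 47.1 and 60.1 on the knockout arrays, against 33.7 and 39.9 on the wild type arrays.

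Other large-subunit genes with higher knockout signals were Rpl4, Rpl6, Rpl7a and Rpl8. Rpl4, whose product is one of the largest ribosomal proteins and reaches into the exit tunnel, had 26066 and 27073 on the knockout arrays, against 23120 and 23141 on the wild type arrays (difference 0.20, SE 0.045, limma adjusted p = 0.080). Its adjusted p was 0.039 with a common trimmed mean. Rpl6, another large-subunit protein, had 7019 and 6554, against 5746 and 5961 (difference 0.21, limma adjusted p = 0.12). In both genes the groups were apart, and neither passed as deposited.

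Rpl7a had 13191 and 12192 on the knockout arrays, against 11004 and 11689 on the wild type arrays (difference 0.16, limma adjusted p = 0.21). Rpl8, whose product lies close to the peptidyl transferase centre, had 14304 and 13097, against 12407 and 12189 (difference 0.15, limma adjusted p = 0.20). In both genes knockout replicate 1 was the highest array, and without it the differences were 0.10 for Rpl7a and 0.09 for Rpl8.

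The large-subunit genes with lower knockout signals included Rpl37 and Rpl38, which encode small proteins. Rpl37 had 1085 and 1330 on the knockout arrays, against 1376 and 1365 on the wild type arrays (difference -0.19, limma adjusted p = 0.36). Rpl38, known in the mouse for its part in the translation of Hox transcripts, had 18282 and 20501, against 21317 and 21022 (difference -0.13, limma adjusted p = 0.31). In both genes knockout replicate 1 was the lowest array and knockout replicate 2 lay close to the wild type arrays, and without knockout replicate 1 the differences were -0.04 and -0.05. Without knockout replicate 2 they were -0.34 and -0.21.

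Of the 16 tested large-subunit genes other than the stalk proteins, 10 were higher and 6 lower (median 0.01), with 0 called. Those near level included Rpl11, whose product forms the 5S particle and binds the p53 regulator Mdm2, at 14808 and 14689 on the knockout arrays, against 14176 and 14672 on the wild type arrays (difference 0.03). Rpl13a, which has a further role in the control of inflammatory transcripts in human cells, had 28588 and 29115, against 29976 and 27722 (difference 0.0012). The acidic stalk, which recruits elongation factors, was represented by Rplp0 and Rplp2. Rplp0, the stalk base, had 39886 and 40009 on the knockout arrays, against 39051 and 37284 on the wild type arrays (difference 0.07, limma adjusted p = 0.43). Rplp2 had 15747 and 16786, against 18534 and 17882 (difference -0.16, SE 0.055, limma adjusted p = 0.15). The 2 stalk genes thus lay on opposite sides of 0, and their difference from each other was not tested.

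Among proteins of the small subunit, Rpsa had the largest positive difference. Rpsa encodes a ribosomal protein that is also known as a laminin receptor. Its signal was 4662 and 4158 on the knockout arrays, against 3622 and 3438 on the wild type arrays, with means of 4410 ± 356 and 3530 ± 130 (SD, n = 2 each). The groups were apart (log2 difference 0.32, SE 0.078, limma adjusted p = 0.089). Rps3, which lies at the messenger RNA entry, had 7296 and 7454 on the knockout arrays, against 6550 and 6868 on the wild type arrays (difference 0.14, limma adjusted p = 0.21). Rps6, the target of S6 kinase, was measured only by a dim probe set, at 133 and 107 on the knockout arrays and 96.0 and 109 on the wild type arrays, where the groups overlapped.

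Rps18, a protein of the head of the small subunit, had 15950 and 15840 on the knockout arrays, against 18203 and 18427 on the wild type arrays. Array values within a genotype were close and the genotypes apart, at 15895 ± 77.4 and 18315 ± 159 (SD, n = 2 each), a difference of -0.20 (SE 0.045, limma adjusted p = 0.075) that was -0.10 with a common trimmed mean. The other 2 kept Rps18 probe sets differed by -0.18 and -0.04.

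Rps27l, a paralogue of Rps27 and in human and mouse cells a p53 target, had the largest negative difference. Its signal was 7626 and 10052 on the knockout arrays, against 11052 and 10911 on the wild type arrays (difference -0.33, SE 0.13, limma adjusted p = 0.21). All 3 kept probe sets were lower, by 0.33, 0.29 and 0.25 on the log2 scale in size. The 2 knockout arrays stood far apart from each other, and the difference was -0.13 without knockout replicate 1 and -0.53 without knockout replicate 2. Rps26, which contacts messenger RNA upstream of the start codon, had 15205 and 15434 on the knockout arrays, against 16384 and 16271 on the wild type arrays (difference -0.09, limma adjusted p = 0.28), and was 0.013 with a common trimmed mean.

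Rps24, mutated in some human Diamond-Blackfan anaemia, had 27264 and 28321 on the knockout arrays, against 28506 and 31559 on the wild type arrays (difference -0.11, limma adjusted p = 0.36). The groups were apart by a small gap below wild type replicate 1, and the difference was -0.04 without wild type replicate 2, -0.0053 with a common trimmed mean and -0.18 when wild type replicate 1 was left out. Of the 17 tested small-subunit genes, 7 were higher and 10 lower (median -0.01), with 0 called. Rps19, another gene of that anaemia, was close to level at 5611 and 5672 on the knockout arrays and 5718 and 5582 on the wild type arrays (difference -0.0022). Rps28 also differed by little, at 42409 and 43783 on the knockout arrays and 43783 and 43064 on the wild type arrays (difference -0.01). Knockout replicate 2 and wild type replicate 1 hold the same deposited value there. Over the whole table these 2 arrays share a value at 472 probe sets, and any 2 arrays at 228 to 2385. The cause was not tested.

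Several genes had more than 1 kept probe set, 15 of the 35, and in 9 of these all probe sets had the same sign. Of the 9, Rpl22 and Rps7 were higher throughout and the others lower, as deposited. Rps24 had the widest spread, with 4 bright probe sets between -0.11 and -0.08 and 2 dim ones at 0.14 and 0.28. The names of the 4 bright ones end in _x_at, the platform's mark for probes that may also bind other transcripts. Those of the 2 dim ones end in _at. Among the brightest probe sets of the 35 genes, 13 were of the _x_at kind, with a median of -0.05. The others had a median of 0.05, and binding to other transcripts was not tested. Rpl27 had -0.07 at the brightest probe set, 0.09 at the next and -0.19 at the dimmest. Rpl13a had 0.0012 at the brightest and -0.30 at the dimmest. Rps9 had -0.05 at the brightest, where knockout values of 9773 and 11681 overlapped wild type values of 10871 and 11245, and -0.23 at the other (SE 0.059, limma adjusted p = 0.099). Over all 68 kept probe sets of these genes the median was -0.02, with 25 higher, 43 lower and 0 called.

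**Figure D3:**
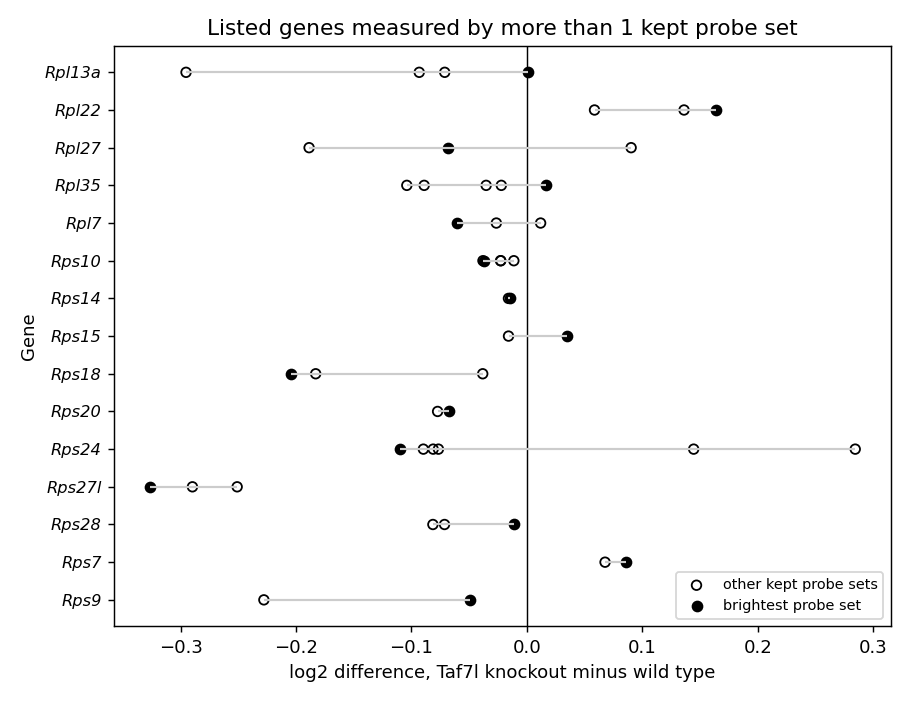
Log2 difference, Taf7l knockout minus wild type, at each kept probe set of the 15 genes that have more than 1. Filled points are the brightest probe set and open points the others. As deposited, only Rpl22 and Rps7 lie above 0 throughout. Rps9, Rps10, Rps14, Rps18, Rps20, Rps27l and Rps28 lie below it throughout, and Rps24 spans -0.11 to 0.28.

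The probe sets left out because they are annotated to several genes, of which 1 is on the list, had a median on the other side of 0 from that. They numbered 71, and 61 were above the limit, with a median of 0.06, 40 higher and 21 lower, and 0 called by limma. At an unadjusted p under 0.05 there were 14 higher and 3 lower, 27.9% in all. Of all genes 7.49% were higher and 20.4% lower at that threshold, also 27.9% in all, so the directions were split differently. No gene is named from them here. Together with the 68 they gave a median of 0.0012. Of the 18 listed genes without a value, 16 lie only on such probe sets, namely Rpl3, Rpl5, Rpl9, Rpl10, Rpl13, Rpl15, Rpl23, Rpl24, Rpl28, Rpl30, Rpl32, Rpl36, Rplp1, Rps12, Rps13 and Rps23, and the other 2, Rpl10l and Rpl18, were not analysed here.

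The knockout arrays differed in how far they lay from wild type. Of the 35 genes, 24 lay further from the wild type mean on knockout replicate 1 than on knockout replicate 2. The SD over the 35 genes of the log2 difference was 0.129 between the knockout arrays and 0.081 between the wild type arrays. It was 0.208 and 0.201 between knockout replicate 1 and the wild type arrays, and 0.122 and 0.118 between knockout replicate 2 and the same arrays. Over all 12241 genes the SD was 0.206 between the knockout arrays and 0.195 between the wild type arrays. There it was 0.321 and 0.310 between knockout replicate 1 and the wild type arrays, and 0.301 and 0.284 between knockout replicate 2 and the same arrays. Knockout replicate 2 was thus nearer to the other knockout array than to wild type over all genes, and about as far from both over the 35.

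The rest of the translation machinery was read from lists of other genes. For comparison, 39.3% of all genes tested were higher and 60.7% lower as deposited (median -0.05). Of all genes 0.539% were called higher and 1.2% lower, shares at which 0 called in a list is no result about its genes. Of 10 tested ribosomal protein genes not among the 56, 2 were higher and 8 lower (median -0.09, and 0.01 with a common trimmed mean), with 0 called. Rps3a1 had 13698 and 13957 on the knockout arrays, against 11809 and 11665 on the wild type arrays (difference 0.24, limma adjusted p = 0.068). Rpl41, which encodes the smallest ribosomal protein, had 22537 and 22583, against 27967 and 25662 (difference -0.25, limma adjusted p = 0.081). Rps4l, a paralogue of the X-linked Rps4x, had 3509 and 3392, against 4071 and 4004 (difference -0.23, limma adjusted p = 0.093). Rps4x had 2939 and 3327, against 2740 and 3096 (difference 0.10, groups overlapping). The contrast within this pair was not tested.

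Factors that build the ribosome went both ways, from -0.67 to 0.34. Of 58 tested, 27 were higher and 31 lower (median -0.01, and 0.07 after quantile normalization), with 0 called. Rrp12, which takes part in export and processing of pre-ribosomes, had 300.3 and 334 on the knockout arrays, against 544 and 469 on the wild type arrays (difference -0.67, limma adjusted p = 0.056). Of 44 initiation, elongation and termination factors, 18 were higher and 26 lower (median -0.06, and 0.02 after quantile normalization), with 0 called. Eif2b4, a subunit of the exchange factor of eIF2, had 1163 and 1137, against 1613 and 1560 (difference -0.46, limma adjusted p = 0.051). Eef1a1, the main elongation factor, had 39742 and 38874, against 34572 and 34821 (difference 0.18, limma adjusted p = 0.081).

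Genes of the mitochondrial ribosome lay lower as deposited. Of 76 tested, 18 were higher and 58 lower (median -0.13, and -0.02 after quantile normalization or with a common trimmed mean), with 0 called. Of all genes 60.7% were lower as deposited (median -0.05). The median of all genes was -0.0018 after quantile normalization and 0.05 with a common trimmed mean. At an unadjusted p under 0.05 there were 5 higher and 23 lower, 36.8% in all. Of all genes 7.49% were higher and 20.4% lower at that threshold, 27.9% in all. Mrps26, a small-subunit protein, had 630.0 and 714 on the knockout arrays, against 996 and 1089 on the wild type arrays (difference -0.63, limma adjusted p = 0.051). Mrpl48 went the other way, at 2328 and 2465, against 1857 and 1893 (difference 0.35, limma adjusted p = 0.063).

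**Figure D4:**
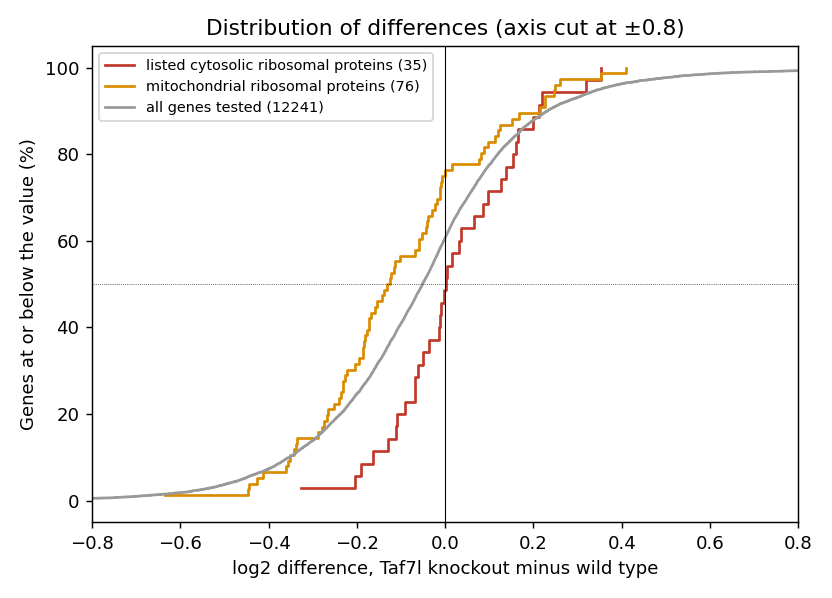
Cumulative share of genes (%) by log2 difference, Taf7l knockout minus wild type, for the 35 listed cytosolic ribosomal protein genes, 76 mitochondrial ribosomal protein genes and all 12241 genes tested. The curves cross the 50% line at 0.0012, -0.13 and -0.05, and values beyond 0.8 in size are not drawn.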

How the data were processed

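The deposited table holds 1 linear intensity per probe set and array, made with MAS5 per the submitters' processing notes, with no version or scaling target. Its 45037 mouse probe sets took their gene from the platform annotation, and symbols were brought up to date by Entrez ID in RefSeq (GRCm38.p6). Of these, 34945 had 1 gene, 932 several and 9160 none, and 34741 matched RefSeq. The log2 of each intensity was used as it stood, without an offset or another normalization, and probe sets with a mean of at least 45.8 were kept. The fit used limma 3.58.1 (R 4.3.3) with genotype as the only term, 2 residual and 3.17 prior degrees of freedom, and adjustment over 22519 probe sets. The procedure was tested on simulated data with independent noise, which held no shift shared by the genes of an array, so it does not cover such shifts. The number of arrays limits the precision. The same-number arrays did not deviate together (correlation 0.03).

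Text names Rpl39l, Rpl39, members whose groups do not overlap (up to 8 with the largest difference in each direction) and list genes with the smallest p. Since no member or list gene was called, Rpl11, Rpl13a, Rplp0, Rps6, Rps9, Rps19, Rps28, Rpl27, Rps4x and the list genes named were chosen after their values were seen. The members and lists were chosen with earlier results of these data known. The search for pyrimidine runs was added after the data were seen. Alternatives covered scaling, offset, filter, variance prior, replicate block, probe set choice, threshold and each array left out.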

Additional observations from a re-analysis of the deposited data

How the results depend on the processing

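The number of probe sets called over the whole table depended strongly on the settings. It was 312 as deposited, 148 after quantile normalization, 646 with median centring and 597 with a common trimmed mean, of 22519 tested each time. It was 36 of 22519 without the variance trend, 0 of 45037 with no filter and 806 of 12241 with 1 probe set per gene. The 75th percentile filter left 11260 to test. Keeping only probe sets above the 75th percentile gave 2375, the replicate block 541, a threshold of 0.10 on the adjusted p 2628, and each of the 4 fits that left out an array 0. Of the calls, 32.1% were higher as deposited, against 61.5% after quantile normalization, 61.3% with a common trimmed mean, 69.4% without the variance trend and 18.2% with the 75th percentile filter. Of the ribosomal protein genes, 0 were called as deposited, with the replicate block and with any 1 array left out. With quantile normalization, median centring, the mean of probe sets and 1 probe set per gene 1 of 35 was called, Rpl10a each time. Of all 12241 genes, 102, 439, 965 and 806 were called in these settings. A common trimmed mean called 2 of 35, Rpl4 and Rpl10a, where 394 of 12241 genes were called. The 75th percentile filter called 4 of 34, Rpl4, Rpl10a, Rps18 and Rpsa, where 1613 of 7125 genes were called. An adjusted p under 0.10 called the same 4 of 35, where 1686 of 12241 genes were called. The median of the listed genes, 0.0012 as deposited, was 0.063 after quantile normalization, 0.11 with a common trimmed mean and 0.090 with single-transcript probe sets, of which 11 were left. It ran from -0.012 to 0.026 with any 1 array left out.

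The contrast of Rpl39l with Rpl39, -0.12 as deposited, ran from -0.24 to 0.01 with any 1 array left out. Rpl39 itself was at -0.0046 with median centring and between -0.091 and 0.10 with any 1 array left out. Rps26 was at 0.013 with a common trimmed mean, and Rps24 at 0.012 with the mean of probe sets, 0.14 with single-transcript probe sets and 0.28 at its dimmest probe set. The causes were not tested. No contrast of Rpl22l1 could be formed from single-transcript probe sets, and the planned contrast of Rpl10l with Rpl10 was not run, having no values. The signal limit of 45.8 is the median over all mouse probe sets and not a measured background, and it left out Rpl12.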
